A study of Homo sapiens with 10 samples.

Results

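The genes described here are 10 markers and regulators of the epithelial-mesenchymal transition (EMT): CDH1, CDH2, VIM, FN1, SNAI1, SNAI2, ZEB1, ZEB2, TWIST1 and TWIST2. They were chosen by name from 20033 protein-coding genes, and all histone acetylation peaks over each gene body and 50 kb to each side were collected. In EMT, epithelial cells give up the E-cadherin junctions that hold them together and take on a motile, fibroblast-like form with vimentin filaments and a fibronectin matrix. The zinc finger proteins of the SNAI and ZEB families repress E-cadherin through E-box motifs, and the TWIST proteins are basic helix-loop-helix factors that bind E-boxes as well. The ZEB proteins and the miR-200 family of microRNAs repress each other, and in prostate cancer EMT is known for its link to invasion and drug resistance.

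The line C4-2B comes from castration-resistant adenocarcinoma of the prostate. C4-2BER is its enzalutamide-resistant, neuroendocrine-like (NE-like) derivative, which was grown in the constant presence of enzalutamide, an inhibitor of androgen receptor signaling. Resistance and the presence of the drug therefore cannot be told apart, and each cell state is represented by a single line. Acetylation of histone H3 at lysine 27 (H3K27ac) and at lysine 18 (H3K18ac), which marks active promoters and enhancers, was measured by ChIP-Seq with 2 libraries per mark and cell line, beside 1 input library per cell line.

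The biological replicates were merged by the authors before peak calling, so 4 peak lists were analysed, each with 1 pooled value per peak. No value has a replicate error, no test between C4-2BER and C4-2B could be made, and every comparison describes these pooled libraries only. The value of a peak is its fold enrichment, the ChIP signal divided by the local background in its own list. Each peak has 1 such value for its whole width, so peaks of unlike width are not compared over the same bases. The median width was 1180 bp in C4-2BER against 1032 bp in C4-2B for H3K27ac, and 936 bp against 788 bp for H3K18ac. The lists hold no read counts and the depth is unknown, so the mark may be present where no peak was called. The H3K27ac lists held 72971 peaks in C4-2BER against 68034 in C4-2B, of which 68 and 61 lay over the 10 loci. The H3K18ac lists held 197948 and 198451 peaks, of which 105 and 141 lay over the loci.

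At the promoters, from 2000 bp before to 500 bp after every annotated transcription start site (TSS), most EMT genes had lower values in C4-2BER compared to C4-2B, as most of all genes did. C4-2BER had the higher H3K27ac value at 1 of the 6 EMT promoters with a peak, FN1, and the higher H3K18ac value at 2 of 10, FN1 and TWIST2. Among all genes with a peak in both lines, 12.2% of promoters were higher in C4-2BER for H3K27ac and 15.1% for H3K18ac. The promoters of CDH1, VIM, FN1, SNAI1, SNAI2 and ZEB1 had an H3K27ac peak in both cell lines. CDH2, ZEB2, TWIST1 and TWIST2 had none in either line. Over all protein-coding genes, 74.2% had an H3K27ac promoter peak in C4-2BER against 73.8% in C4-2B. All 10 promoters carried an H3K18ac peak in both lines, against 85.2% and 87.2% of all genes. The 4 genes with H3K18ac alone had low values, with a fold enrichment from 2.34 for ZEB2 to 3.00 for TWIST2 in C4-2BER and from 2.59 for TWIST2 to 3.27 for TWIST1 in C4-2B.

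A promoter was counted as increased when only C4-2BER had a peak there or when the C4-2BER value was 2 or more times that of C4-2B, and as decreased when this held with the lines exchanged. SNAI2 and VIM had decreased H3K27ac and 0 of the 6 marked promoters were increased. Among the 15346 genes with an H3K27ac promoter peak in either line, 10.8% were decreased and 4.56% increased. For H3K18ac, SNAI2 alone was decreased and 0 of 10 were increased, against 5.9% decreased and 2.15% increased among 17828 genes.

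The log2 ratio of fold enrichment, C4-2BER to C4-2B, had a median of −0.58 over the 6 H3K27ac promoters and −0.50 over all shared promoters. For H3K18ac the medians were −0.22 over the 10 genes and −0.33 over all genes. The medians of the EMT genes thus lay close to those of all promoters, and single genes stood at both ends. After rescaling with a robust line through the regions common to both lines, the median over the EMT genes was −0.16 for H3K27ac and −0.11 for H3K18ac, and −0.11 and −0.13 over all genes. On the rescaled scale SNAI2 alone was decreased in each mark and 0 were increased, against 4.39% decreased and 5.04% increased among all genes for H3K27ac and 4.66% and 2.27% for H3K18ac. The rescaled log2 ratio was above 0 at 3 of 6 EMT promoters for H3K27ac and at 3 of 10 for H3K18ac.

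**Figure D1:**
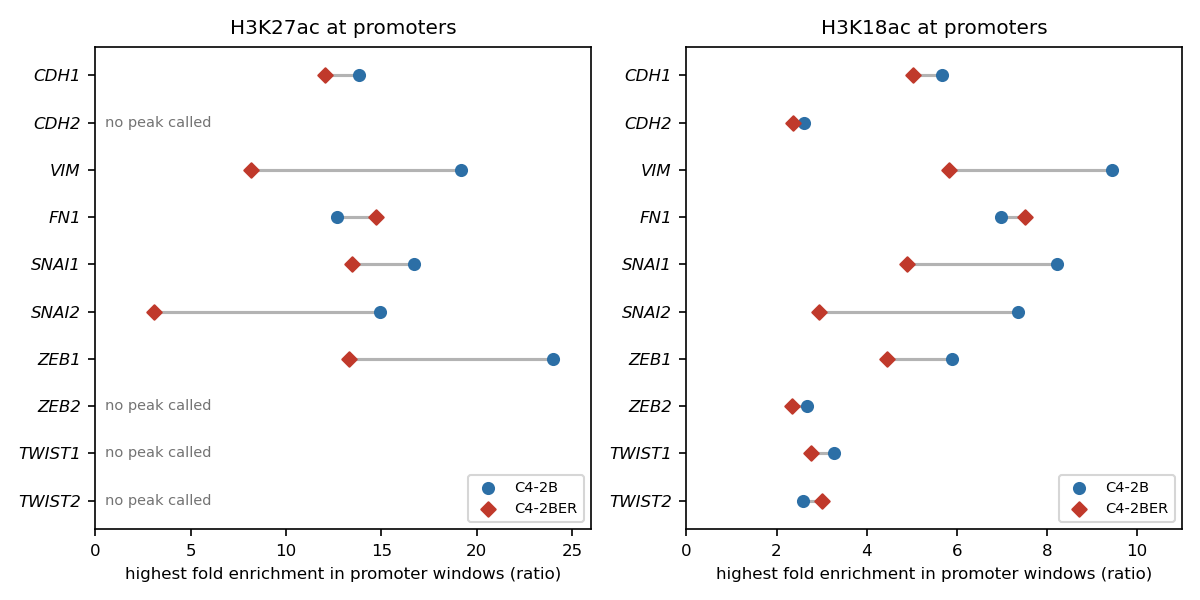
Highest fold enrichment (ratio to local background) of a peak in the promoter windows of the 10 EMT genes, H3K27ac on the left and H3K18ac on the right. Circles are C4-2B and diamonds C4-2BER, each from 1 pooled peak list without an error. The lines between the symbols are longest for SNAI2 and VIM in H3K27ac, and FN1 has the diamond to the right in both marks.

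E-cadherin, encoded by CDH1 (chr16:68737292-68835537 on GRCh38, plus strand), is the adhesion molecule of epithelial junctions. Its H3K27ac promoter value was 12.0 in C4-2BER against 13.8 in C4-2B, a log2 ratio of −0.20, and its H3K18ac value was 5.04 and 5.68, a log2 ratio of −0.17. The promoter lay in a broad H3K27ac domain from the first exon into intron 2. This domain was a single peak of 21.7 kb in C4-2BER against 21.1 kb in C4-2B. These peaks were wider than 99.7% and 99.8% of the peaks in their lists. The H3K18ac peak over the same start site was 42.03 kb wide in C4-2BER against 29.2 kb wide in C4-2B. Averaged by length over the whole region that these peaks formed, H3K18ac was 5.04 in C4-2BER against 4.95 in C4-2B, a log2 ratio of 0.03.

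Peaks covered 82.1 kb of the CDH1 locus in C4-2BER against 49.7 kb in C4-2B for H3K27ac, and 107 kb and 79.4 kb for H3K18ac. The H3K27ac share of the locus, 41.4% in C4-2BER, was larger than that of 93.6% of all protein-coding loci. A second H3K27ac element in intron 2 had a peak of 11.6 kb with 8.49-fold enrichment in C4-2BER, and the strongest C4-2B peak within it was 4.53 kb wide with a fold enrichment of 10.2. Averaged by length over the whole element, the C4-2B value was 7.47, a log2 ratio of 0.18. Another H3K27ac element stood at −4923 bp from the TSS, with 10.4 in C4-2BER against 8.54 in C4-2B. Of the 23 H3K27ac regions over the locus, 10 were found in C4-2BER only, all with a fold enrichment between 2.09 and 2.61. Counted by the rule for promoters, 43.5% of the 23 were increased and 8.70% decreased, against 30.5% and 22.7% of all H3K27ac regions. For the 10 regions of C4-2BER only, the median share of sequence made of repeated 24-base words was 34.4%, against 24.9% for the 11 regions found in both lines. The part of repeated sequence in these calls was not tested. Both marks were thus found at the promoter and in intron 2 of CDH1 in the NE-like line, with promoter values within a ratio of 2 of those in C4-2B.

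N-cadherin, encoded by CDH2 (chr18:27932879-28177946, minus strand), is the cadherin of mesenchymal and neural cells. No H3K27ac peak was called anywhere in its 345 kb locus in either cell line. Its H3K18ac promoter peak was weak, with 2.36-fold enrichment in C4-2BER against 2.62 in C4-2B. H3K18ac covered 1.00 kb of the locus in 2 peaks in C4-2BER and 2.42 kb in 5 peaks in C4-2B. C4-2B thus had the longer covered length by more than 2 times, but not when the gene body was taken alone or with flanks of 10 kb or 100 kb. Over all loci, the H3K18ac length was at least 2 times longer in C4-2B at 6.15%.

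**Figure D2:**
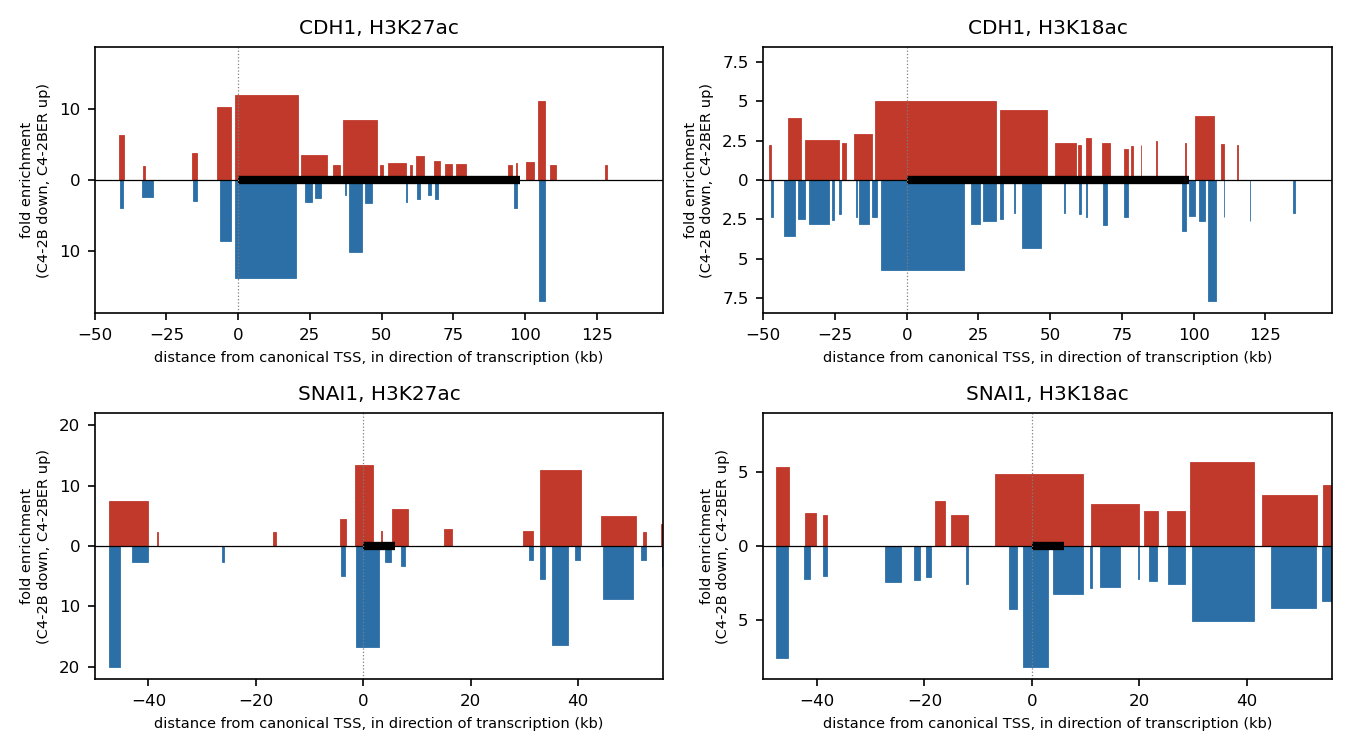
Peaks over the CDH1 and SNAI1 loci. The horizontal axis is the distance from the canonical TSS in kb in the direction of transcription, bars above the line are C4-2BER peaks and bars below it C4-2B peaks, the height is the fold enrichment and the thick line is the gene body. Both lines have the broad H3K27ac peak at the start of CDH1, 21.7 kb wide in C4-2BER, and the strong peak 36764 bp downstream of the SNAI1 TSS.

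Vimentin, encoded by VIM (chr10:17228241-17237593, plus strand), is the intermediate filament of mesenchymal cells. The 300 bases around its annotated start, from RefSeq (GRCh38.p14, chr10:17227991-17228290, plus strand), are shown because its H3K27ac peak began downstream of them, at base 17228499 in C4-2BER against 17228711 in C4-2B. An E-box motif CACCTG or its reverse complement CAGGTG, which would be in capitals, occurs 0 times.
VIM promoter: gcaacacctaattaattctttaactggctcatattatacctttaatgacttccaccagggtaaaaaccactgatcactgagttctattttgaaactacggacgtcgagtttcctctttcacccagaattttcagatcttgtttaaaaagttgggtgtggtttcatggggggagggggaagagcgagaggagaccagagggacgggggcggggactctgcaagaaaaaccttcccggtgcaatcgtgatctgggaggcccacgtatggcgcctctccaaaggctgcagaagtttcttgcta

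The VIM H3K27ac peak had an 8.15-fold enrichment in C4-2BER against 19.2 in C4-2B, a log2 ratio of −1.24, which was decreased. Of all shared promoters, 2.66% had a lower ratio. The rescaled log2 ratio was −0.88, short of the limit. H3K18ac was 5.83 in C4-2BER against 9.45 in C4-2B, a log2 ratio of −0.70. The width of the H3K27ac peak was 2.68 kb in C4-2BER against 2.45 kb in C4-2B, so the peak was lower but not narrower. The window also holds the promoter of the antisense gene VIM-AS1, and acetylation at these promoters cannot be told apart. H3K27ac covered 4.18 kb of the locus in C4-2BER against 4.03 kb in C4-2B, with 3 peaks in each line. The promoter profiles nearest to that of VIM over the 4 lists were those of GLI3, TMX1 and DYRK1B, at distances of 0.0949, 0.0997 and 0.110 on the log2(fold enrichment + 1) scale. GLI3, for example, had 7.58 in C4-2BER against 19.1 in C4-2B for H3K27ac.

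Fibronectin, encoded by FN1 (chr2:215360440-215436073, minus strand), is an extracellular matrix glycoprotein and its locus had the largest ratio of covered length in C4-2BER to C4-2B among the 10 loci in both marks. Its promoter window from RefSeq (GRCh38.p14, chr2:215436019-215436318, minus strand) is shown as that of the only H3K27ac promoter of the list with the higher value in C4-2BER. It has 76.7% GC and holds 0 CACCTG or CAGGTG motifs.
FN1 promoter: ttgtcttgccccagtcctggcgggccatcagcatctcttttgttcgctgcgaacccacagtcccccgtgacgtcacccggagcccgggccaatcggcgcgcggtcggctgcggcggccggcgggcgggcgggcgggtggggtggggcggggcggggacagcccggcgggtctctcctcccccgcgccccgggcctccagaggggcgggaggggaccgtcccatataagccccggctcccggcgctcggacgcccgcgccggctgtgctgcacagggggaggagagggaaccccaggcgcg

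The H3K27ac promoter peak of FN1 had 14.7-fold enrichment in C4-2BER against 12.7 in C4-2B, a log2 ratio of 0.22, and 93.4% of shared promoters had a lower ratio. That of H3K18ac was 7.51 and 6.99, a log2 ratio of 0.10, above 90.5% of shared promoters. Neither ratio reached 2, and both peaks also covered a promoter of the neighbouring gene FN1-DT. The promoter stood above 28.7% of all H3K27ac promoters in C4-2B and above 68.1% in C4-2BER.

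Over its whole locus, H3K27ac covered 47.9 kb around FN1 in C4-2BER against 19.6 kb in C4-2B, a ratio of 2.45. H3K18ac covered 55.3 kb and 22.4 kb, a ratio of 2.47. Covered length was at least 2 times longer in C4-2BER at 12.9% of all loci for H3K27ac and at 8.69% for H3K18ac, and longer in C4-2B at 3.3% and 6.15%. Most of the H3K27ac length lay in regions found in both lines, with 39.8 kb in C4-2BER against 19.6 kb in C4-2B, and 8.13 kb lay in regions of C4-2BER only. Divided by the total covered length of each list, 144.8 Mb in C4-2BER and 117.1 Mb in C4-2B, the log2 ratio of the H3K27ac length was 0.98 in place of 1.29 and FN1 was no longer counted as increased. For H3K18ac, with totals of 320.7 Mb and 293.2 Mb, the length at FN1 stayed increased.

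C4-2BER and C4-2B peaks that overlapped were joined into 1 region each, and regions were called as the promoters were. Of the 22 H3K27ac regions over the FN1 locus, 11 were increased and 0 decreased, against 30.5% increased and 22.7% decreased among all H3K27ac regions. Of these 11 regions, 9 overlapped an H3K18ac region that was increased as well. The increased regions lay mainly past the 3′ end of FN1, where 8 of 10 regions were increased, and in that flank 7 H3K27ac peaks of C4-2BER lay over the body of the neighbouring gene ATIC, an enzyme of purine synthesis. The peak lists do not say to which gene these regions belong. The 9 regions found in C4-2BER only were weak, with a fold enrichment from 2.12 to 3.35, and with a fold enrichment of at least 4 the number of increased H3K27ac regions over all 10 loci was 4 in place of 26.

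The largest ratios in regions found in both lines were in intron 2 and downstream of the gene. The intron 2 region had an H3K27ac fold enrichment of 4.84 in C4-2BER against 2.24 in C4-2B, and an H3K18ac peak of 3.20 in C4-2BER only. The downstream region (chr2:215352288-215355092) had 6.27 and 3.11 for H3K27ac, with 3.76 and 3.36 for H3K18ac.

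**Figure D3:**
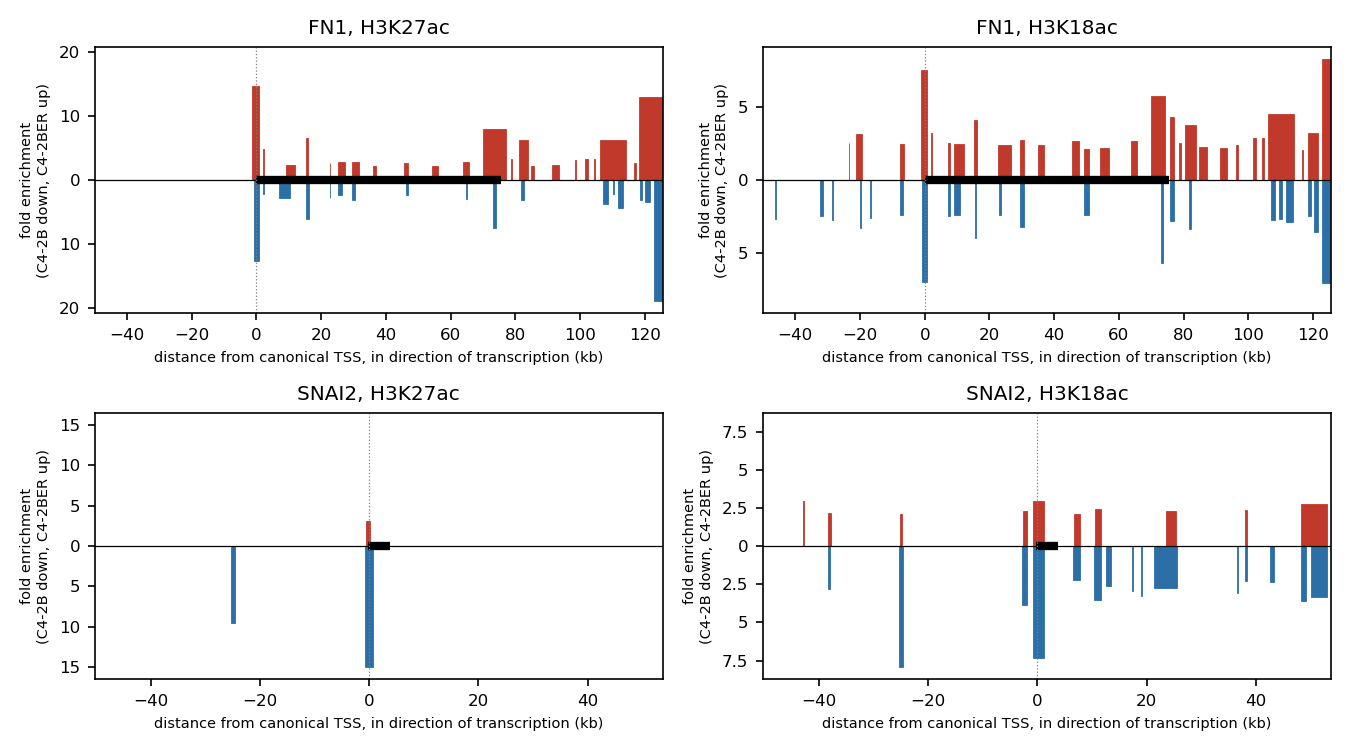
Peaks over the FN1 and SNAI2 loci, with the distance from the canonical TSS in kb on the horizontal axis, fold enrichment on the vertical axis, C4-2BER above the line and C4-2B below it, and the gene body as a thick line. The FN1 locus shows wider and additional C4-2BER peaks towards and past the 3′ end, and the 2 H3K27ac peaks of SNAI2 in C4-2B, with 15.0 at the promoter and 9.47 upstream, have 1 low counterpart of 3.09.

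SNAI2 encodes Slug, a zinc finger repressor of E-cadherin, and its promoter had the lowest ratio of the EMT genes in both marks (chr8:48917598-48921740, minus strand). Its H3K27ac promoter value was 3.09 in C4-2BER against 15.0 in C4-2B, a log2 ratio of −2.27, and 0.0769% of all shared promoters had a lower ratio. That of H3K18ac was 2.95 and 7.36, a log2 ratio of −1.32, with 0.168% of shared promoters lower. Both stayed decreased after rescaling, at −2.06 and −1.15. The regions of both marks also lay on a promoter of an annotated gene without a symbol. The H3K27ac peak was 0.762 kb wide in C4-2BER against 1.56 kb in C4-2B.

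An upstream region of SNAI2 was lower in C4-2BER as well. At −25020 bp from the TSS (chr8:48946057-48946841), C4-2B had an H3K27ac peak with a fold enrichment of 9.47 and C4-2BER had none. The H3K18ac values there were 2.13 in C4-2BER against 7.92 in C4-2B, a log2 ratio of −1.90. These were the only H3K27ac peaks of the locus, so H3K27ac covered 0.762 kb in C4-2BER against 2.35 kb in C4-2B, and 0.697% of loci had a lower log2 ratio. H3K18ac covered 13.0 kb and 17.8 kb, and 7 of its 15 regions were decreased and 1 increased, against 23.5% and 26.2% of all H3K18ac regions. Of these 7, 5 were found in C4-2B only, with a fold enrichment from 2.33 to 3.30. The promoters nearest in profile to SNAI2 were those of CHRNA2, GHRHR and EPHA3, at distances from 0.376 to 0.485, farther than the neighbours of VIM.

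SNAI1 encodes Snail, the related zinc finger repressor, and had H3K27ac at its promoter in both lines (chr20:49982980-49988886, plus strand). Its promoter value was 13.5 in C4-2BER against 16.7 in C4-2B for H3K27ac, a log2 ratio of −0.31, and 4.89 and 8.22 for H3K18ac, a log2 ratio of −0.75. The H3K18ac promoter peak of C4-2BER was 16.4 kb wide and spanned 3 C4-2B peaks, of which the one at the promoter was 4.78 kb wide. Averaged by length over this whole region, H3K18ac was 4.89 in C4-2BER against 5.40 in C4-2B, a log2 ratio of −0.14, or 0.04 after rescaling. H3K18ac covered 61.7% of the 106 kb locus in C4-2BER against 49.3% in C4-2B, the highest share of the 10 loci in both lines. A strong H3K27ac region 36764 bp downstream of the TSS (chr20:50015862-50023627) had a single C4-2BER peak of 12.6, and the strongest of 3 C4-2B peaks there had 16.4. Averaged by length over the region, the C4-2B value was 11.5. Another at the 3′ end of the gene (chr20:49988293-49991330) had 6.21 and 3.34, a log2 ratio of 0.89, below the limit. After rescaling it was 1.004, which just reached the limit for an increase.

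ZEB1 and ZEB2 encode zinc finger homeobox repressors of E-cadherin. The promoter window of ZEB1 that holds its canonical TSS, from RefSeq (GRCh38.p14, chr10:31318966-31319265, plus strand), is shown because it holds 3 CACCTG or CAGGTG motifs, in capitals, at bases 9, 166 and 284 of the window. Of 35116 promoter windows of the same length, 20.6% hold at least 1, on either strand, and 68.7% hold the wider motif CANNTG, which includes them.
ZEB1 promoter: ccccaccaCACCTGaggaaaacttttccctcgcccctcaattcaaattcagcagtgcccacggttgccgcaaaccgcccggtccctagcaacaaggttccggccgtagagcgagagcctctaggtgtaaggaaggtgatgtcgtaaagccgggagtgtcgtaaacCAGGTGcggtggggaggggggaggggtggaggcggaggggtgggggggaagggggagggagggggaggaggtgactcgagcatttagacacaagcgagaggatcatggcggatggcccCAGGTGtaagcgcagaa

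Promoter windows were found for 6 of the 10 genes (CDH2, VIM, FN1, ZEB1, ZEB2 and TWIST2), 13 windows in all. Of these 6 genes, ZEB1 alone had the motif, in the window shown and once in a second window. ZEB1 also had 7 of the 13 windows, and the other genes 1 or 2 each. A match is a sequence and not a binding site.

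The ZEB1 promoter (gene at chr10:31318495-31529814, plus strand) had the strongest H3K27ac peak of the list in C4-2B, with 24.01, and 13.3 in C4-2BER, a log2 ratio of −0.85 that did not reach the limit. H3K18ac was 4.44 in C4-2BER against 5.90 in C4-2B. The regions of both marks also covered a promoter of the neighbouring gene ZEB1-AS1. The H3K27ac promoter peak was 2.18 kb wide in C4-2BER against 1.07 kb in C4-2B, so the covered length of the locus, 2.58 kb against 1.07 kb, was counted as increased while the fold enrichment was lower. Divided by the total of each list, the log2 ratio of this length was 0.96, and it was no longer increased. The only other H3K27ac peak was one of 2.38 in intron 2 in C4-2BER, and 88.1% of its sequence was made of repeated words. No H3K27ac peak was called over the gene body of ZEB2 (chr2:144364364-144521057, minus strand). Its H3K18ac promoter value was 2.34 in C4-2BER against 2.68 in C4-2B, in a peak over exon 2 that was centred 2894 bp and 3406 bp from the canonical TSS. The 1 H3K27ac peak of the ZEB2 locus, with 22.8 in C4-2BER against 34.9 in C4-2B, was on the promoter of the neighbour GTDC1.

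TWIST1 (chr7:19020991-19117636, minus strand) had no H3K27ac peak in its locus. Its H3K18ac promoter peak had 2.76 in C4-2BER against 3.27 in C4-2B, and H3K18ac covered 2.32 kb in C4-2BER against 5.86 kb in C4-2B, a decreased length. Over all loci, 6.15% had an H3K18ac length at least 2 times longer in C4-2B. TWIST2 (chr2:238848032-238910534, plus strand) had H3K27ac in intron 1 and not at its promoter. The first of these regions (chr2:238863769-238865530) had 5.93 in C4-2BER against 5.63 in C4-2B, and one farther along (chr2:238900222-238902060) had 3.73 and 8.01, a log2 ratio of −1.10 that was decreased, or −0.95 after rescaling. H3K18ac covered 31.2 kb of the TWIST2 locus in C4-2BER against 55.4 kb in C4-2B, and 13 of its 27 regions were found in C4-2B only, with a median fold enrichment of 2.56. At TWIST1, 4 of the 6 H3K18ac regions were found in C4-2B only. These were all of the decreased H3K18ac regions, 48.1% at TWIST2 and 66.7% at TWIST1, against 23.5% of all H3K18ac regions.

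**Figure D4:**
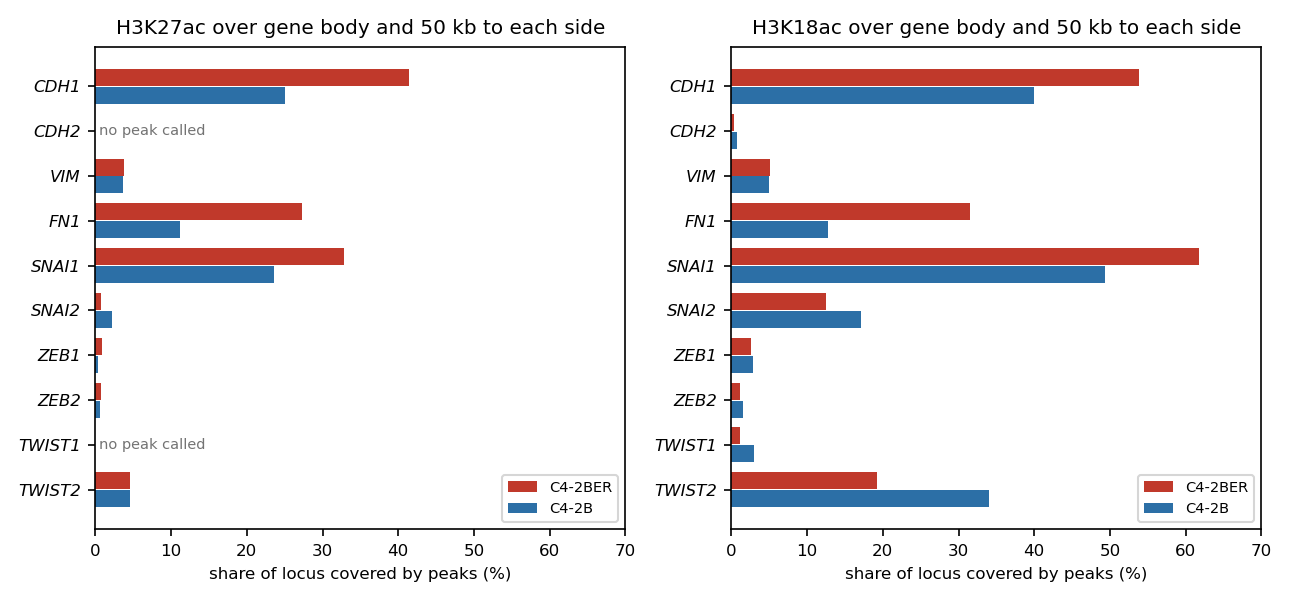
Share of each locus (gene body and 50 kb to each side) covered by peaks, in percent, for H3K27ac on the left and H3K18ac on the right, with 1 bar per cell line from 1 pooled list. In H3K27ac, CDH1, FN1 and SNAI1 have the longest bars, longer in C4-2BER, with 27.3% against 11.1% for FN1, while TWIST2 has the longer H3K18ac bar in C4-2B.

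Over the 10 loci together, 75 H3K27ac regions were found, of which 44 had a peak in both lines, 24 a peak in C4-2BER alone and 7 a peak in C4-2B alone. By the rule of 2 times, 26 were increased, 11 decreased and 38 unchanged, so 34.7% were increased and 14.7% decreased, against 30.5% and 22.7% of all H3K27ac regions. Of the 147 H3K18ac regions, 25 were increased and 46 decreased, or 17.0% and 31.3%, against 26.2% and 23.5% of all H3K18ac regions. Which direction had more regions depended on weak peaks. With peaks of a fold enrichment of at least 4, 4 H3K27ac regions were increased and 7 decreased, and 4 H3K18ac regions were increased and 4 decreased. Among peaks whose −log10 q-value reached 5, 11 H3K18ac regions were increased and 4 decreased. Of the 26 increased H3K27ac regions, FN1 held 11 and CDH1 10, and FN1 held 13 of the 25 increased H3K18ac regions.

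Pooled over the loci, base composition differed between the calls, and repeated sequence did so less evenly. The median GC content was 48.0% for increased and 56.9% for decreased H3K27ac regions, and 48.1% and 55.1% for H3K18ac. The loci differed in GC content and in their share of the calls. At FN1, with 11 increased H3K27ac regions, the median was 45.42% for these and 45.39% for all its regions. At CDH1, with 10, it was 47.8% and 47.9%. No GC or repeat share over all regions of the lists is given beside these values. The median share of repeated 24-base words was 33.9% for H3K27ac regions of C4-2BER only, 8.82% for those of C4-2B only and 18.5% for shared ones. For H3K18ac it was 31.6%, 0.488% and 19.3%, but the share of regions made of repeats by at least 50% was 32% for C4-2BER only and 31.8% for C4-2B only. Among the H3K18ac regions of C4-2B only, the median was 0% at CDH2, SNAI2, TWIST1 and TWIST2, the last with 13 of the 44 regions. The medians at CDH1, VIM, FN1, ZEB1 and ZEB2 were 75%, 56.5%, 50.6%, 72.8% and 68.3%, over 2 to 4 regions each. The part of base composition and repeats in these differences was not tested.

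**Figure D5:**
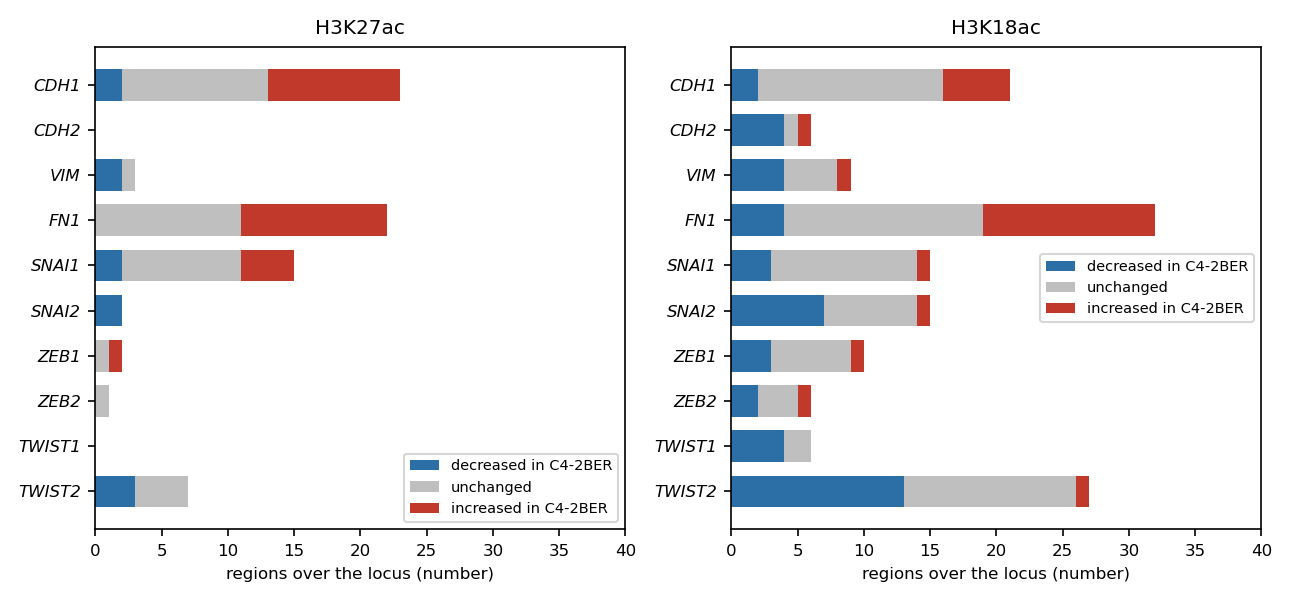
Number of regions over each locus that were decreased, unchanged or increased in C4-2BER, for H3K27ac on the left and H3K18ac on the right. FN1 has 11 increased and 0 decreased H3K27ac regions, and TWIST2 has 13 decreased and 1 increased H3K18ac regions.

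Further genes of the pathway were read from 4 lists. All 16 epithelial genes, among them the junction genes EPCAM, OCLN and TJP1, had an H3K27ac promoter peak in both lines, and 2 were decreased, beside 10.8% of all genes with a peak. MARVELD2, a tricellular junction protein, had 13.0 in C4-2BER against 30.7 in C4-2B. DSP, the desmosomal plaque protein desmoplakin, had 11.6 and 30.5. In H3K18ac, 0 of 16 were decreased and 0 increased, beside 5.9% and 2.15% of all genes with a peak. DSP was at the limit with 6.64 and 13.3. After rescaling, neither DSP nor MARVELD2 was counted as decreased in H3K27ac.

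Of 17 mesenchymal genes and further EMT factors, 12 had an H3K27ac promoter peak in either line, 2 of them increased and 1 decreased. Among all genes with a peak, 4.56% were increased and 10.8% decreased. The homeobox factor PRRX1, with 2.19, and the matrix metalloproteinase MMP2, with 3.08, had a weak peak in C4-2BER only. LOX, a collagen cross-linking enzyme, had 2.59 in C4-2BER against 7.15 in C4-2B. MMP14, another metalloproteinase, had 7.32 and 4.07, a log2 ratio of 0.85 that was not called. Its rescaled log2 ratio of 1.003 just reached the limit for an increase. In H3K18ac, MMP9 had a peak in C4-2B only, with 2.44, and the other 15 genes with a peak were unchanged. Among all genes with an H3K18ac peak, 5.9% were decreased and 2.15% increased.

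The list for TGF-beta signalling, a pathway that can induce EMT, holds ligands, receptors and SMADs and was not split by their effect on EMT. All 12 genes had H3K27ac promoter peaks in both lines, beside 74.2% of all genes in C4-2BER and 73.8% in C4-2B. Of these, 1 was decreased, beside 10.8% of all genes with a peak. This was the ligand TGFB2, with 2.47 in C4-2BER against 12.2 in C4-2B, a log2 ratio of −2.30. Its H3K18ac value was 3.801 in C4-2BER against 6.35 in C4-2B, a log2 ratio of −0.74. The median log2 ratio of H3K27ac was −0.32 over the epithelial genes, −0.52 over the mesenchymal genes and −0.37 over the TGF-beta genes, beside −0.50 over all shared promoters.

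The microRNAs of the miR-200 family fall into 2 groups by the seed, bases 2 to 8 of the mature strand, which is in capitals and pairs with targets such as ZEB1 and ZEB2. Their sequences and that of miR-205, another microRNA that targets the ZEB genes, are from RefSeq (GRCh38.p14).
hsa-miR-200b-3p: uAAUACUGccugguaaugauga
hsa-miR-200c-3p: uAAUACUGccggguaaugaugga
hsa-miR-429: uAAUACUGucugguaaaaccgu
hsa-miR-200a-3p: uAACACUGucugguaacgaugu
hsa-miR-141-3p: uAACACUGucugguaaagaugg
hsa-miR-205-5p: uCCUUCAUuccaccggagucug

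MIR200B, MIR200A and MIR429, which lie together on chromosome 1, had the same promoter peak, with an H3K27ac fold enrichment of 16.4 in C4-2BER against 26.4 in C4-2B and an H3K18ac one of 5.96 and 5.66. MIR200C and MIR141 on chromosome 12 shared a peak, which had 14.1 in C4-2BER against 19.6 in C4-2B for H3K27ac and 7.11 against 6.57 for H3K18ac. Both clusters had an H3K27ac log2 ratio between −0.69 and −0.48 and none was called. MIR205 had no H3K27ac peak and an H3K18ac value of 3.00 in C4-2BER against 2.99 in C4-2B. The values describe windows around these short genes and not the starts of their longer primary transcripts.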

How the data were processed

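H3K27ac and H3K18ac were measured by ChIP-Seq in C4-2BER and C4-2B cells, in duplicate libraries with a single input for each line. Reads were mapped by the authors to GRCh38 using bowtie2 and cleared of blacklisted, poorly mapped and duplicate alignments, after which replicates were pooled and macs2 called broad peaks. Per the labels, bcl2fastq 2.17, Trimmomatic 0.33 and Bowtie2 2.2.3 were used, and the cells were crosslinked with both DSG and formaldehyde. Whether the input served as the control of the peak caller is not given in the sources used here. Per peak, the authors deposited the fold enrichment (a ratio to the list's own local background) and the −log10 q-value. A ratio between lists therefore also carries differences in background, depth and pull-down. The depth is unknown, since the lists give no read counts. No replicate error or test was available.

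Groups were taken from the sample labels and each list was assigned to its mark and cell line. The number of columns of single samples left unused was 0. Start positions were converted to count from 1. Gene bodies and TSSs were those of GENCODE release 44. Promoters ran from 2000 bp upstream to 500 bp downstream of every TSS, and a promoter value was the highest fold enrichment of a peak there. Loci were gene bodies with 50 kb to each side. Where peaks of both lines overlapped they formed 1 region with the length-weighted mean fold enrichment. A feature was increased or decreased with a peak in 1 line only or a ratio of at least 2, without a test. Repeated sequence was the share of 24-base words occurring at least 10 times in GRCh38. The 10 genes and the 4 lists of further genes were chosen with earlier results of these data known. Genes named in the text are the 10, the called genes of the lists, the 3 genes nearest in promoter profile to each gene with a called promoter, by Euclidean distance over log2(fold enrichment + 1), and neighbours whose promoter a peak covers. EPCAM, OCLN, TJP1, MMP14 and the genes of the miR-200 family were named in addition, after their values were seen. Results were recomputed under 13 alternatives and 1 added after seeing the data. The merging, calling and rescaling were tested on simulated data. The scripts ran on Python 3.11.15 with numpy 2.4.6, pandas 2.3.3, statsmodels 0.14.6, pysam 0.24.0 and matplotlib 3.10.9, and samtools 1.23.1. The sequence of 1 region is not reported here.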

Additional observations from a re-analysis of the deposited data

How the results depend on the processing

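No paired analysis was possible because the authors pooled the replicates ahead of peak calling. Of the counts recomputed under the alternatives, 110 stayed within 1.5 times their value and 44 did not. No log2 ratio that was called changed its sign where both lines kept a peak. Rescaling over shared regions left 1 of the 10 EMT genes with a decreased H3K27ac promoter, SNAI2, in place of 2, and 2 in place of 4 of the genes of the other lists. With the presence of a peak as the only criterion, 0 EMT genes were decreased in either mark and 0 genes of the other lists in H3K27ac, and 7 H3K27ac regions were decreased in place of 11. Covered length relative to the total of its list, an alternative chosen after seeing the data, left 0 loci with increased H3K27ac in place of 2. With peaks of a fold enrichment of at least 4, there were 4 increased, 7 decreased and 16 unchanged H3K27ac regions and 4, 4 and 15 H3K18ac regions, 2 loci with decreased H3K27ac length, and 0 increased H3K27ac and 2 decreased H3K18ac promoters among the other lists. A −log10 q-value of at least 5 gave 12 increased and 19 unchanged H3K27ac regions, and 11 increased, 4 decreased and 20 unchanged H3K18ac regions. It also gave 2 loci with increased and 1 with decreased H3K18ac length, and 2 increased and 0 decreased H3K18ac promoters among the other lists. With the gene body alone, 12, 7 and 21 H3K27ac regions were increased, decreased and unchanged, as were 11, 14 and 37 H3K18ac regions, and 1 locus had decreased H3K18ac length. With 10 kb to each side, 17 H3K27ac regions were increased, and 14, 19 and 47 H3K18ac regions were increased, decreased and unchanged. With 100 kb, 40, 21 and 58 H3K27ac regions were increased, decreased and unchanged, 42 H3K18ac regions were increased and 140 unchanged, and 1 locus had decreased H3K18ac length. The canonical TSS alone gave 1 increased H3K27ac promoter among the other lists, and windows of 2000 bp on both sides gave 0 decreased H3K18ac ones. Fewer peaks or other windows by construction change the number of regions, and the cause of the other changes was not tested. Of the single-gene values and lists, 362 kept their call or count and 33 did not, among them VIM in H3K27ac after rescaling (log2 ratio −0.88). A single-gene value without a peak in both lines under an alternative had no log2 ratio. Such cases are in neither number and not in the check of signs. Without depth or replicates, the weak regions found in 1 line only cannot be told apart from differences in sensitivity.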

Other observations

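Peaks on promoters of other genes made up part of the acetylation over the EMT loci, at 13 of 75 H3K27ac regions and 28 of 147 H3K18ac regions. Among them, in both marks, were the own promoter peaks of VIM, FN1, SNAI2 and ZEB1. These also covered promoters of VIM-AS1, FN1-DT, a gene without a symbol and ZEB1-AS1. The H3K18ac promoter peaks of ZEB2 and TWIST1 were shared with other genes as well. The acetylation of a shared promoter cannot be assigned to 1 gene. The strongest H3K27ac peak of the VIM locus lay on the promoter of TRDMT1, an RNA methyltransferase, with 13.1-fold enrichment in C4-2BER against 28.6 in C4-2B, a log2 ratio of −1.12. At the CDH1 locus the promoter of TANGO6 had 11.1 and 17.0, and a region over a promoter of CDH3, the gene of P-cadherin, had 6.40 and 4.00. At the SNAI1 locus, the single C4-2BER peak on the promoter of RNF114 had 7.49, and the strongest C4-2B peak there had 20.05. Averaged by length over this region, the C4-2B value was 9.71, a log2 ratio of −0.37. At the FN1 locus, the peak on the promoter of ATIC had 13.0 in C4-2BER, over 7.68 kb, against 18.9 in C4-2B, over 3.05 kb. Averaged by length over the region of the C4-2BER peak, the C4-2B value was 12.3, a log2 ratio of 0.08.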
